A study of Mus musculus with 15 samples.

Results

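The genes described here encode subunits of the phagocyte NADPH oxidase NOX2: Cybb, Cyba, Ncf1, Ncf4 and Rac2. They were chosen by name, for their place in the complex, but with earlier results of these data known. They are 5 of the 35519 genes in the tables. All 5 had reads, and all 5 passed the filter on low counts that left 6521 genes for testing.

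The libraries were made from microglia of mouse retinas, with 1 bulk RNA library per sample and 15 in all. Wild-type and Apoe-/- C57BL/6 mice, 12 weeks old, were compared after a sham or a microbead injection. Sham libraries came from 4 wild-type and 4 Apoe-/- retinas, and microbead libraries from 3 wild-type and 4 Apoe-/- retinas. Microbeads obstruct fluid outflow and raise eye pressure, a model of glaucoma, and Apoe encodes the lipid carrier apolipoprotein E. Cells were sorted as Fcrls+, CD11b+ and Ly6c-, with 100 to 600 cells collected per retina, so each library rests on few cells and on cells that still carried Fcrls. The labels do not say that the retinas of a group came from separate mice, so p-values measure only the spread between these samples, which may be partly technical. Each genotype has its own plate letter in the names of the deposited tables, so genotype and plate cannot be told apart.

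NOX2 is the enzyme behind the respiratory burst of phagocytes. Its catalytic subunit gp91phox (Cybb) sits in the membrane with p22phox (Cyba), and passes electrons from NADPH to oxygen, which gives superoxide. On activation cytosolic proteins, among them p47phox (Ncf1) and p40phox (Ncf4), move to the membrane together with a Rac GTPase, of which Rac2 is the form typical of blood cells and Rac1 the widespread one. Microglia, the resident phagocytes of the retina, carry this oxidase, which is studied in them for its part in damage to neurons.

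Libraries held 458303 to 714838 reads assigned to genes. Apoe had 667 to 1225 reads in wild-type sham, 3894 to 15125 in wild-type microbead, 0 to 6 in Apoe-/- sham and 3 to 5 in Apoe-/- microbead libraries. Satellite repeat models took 40.8 to 74.4% of reads, least in wild-type microbead libraries 2 and 3. Levels below are CPM, reads scaled to a common library total, with library sizes set by TMM from the bulk of genes. Apoe-/- sham library 2 had the smallest scaled size, 225227, and wild-type microbead library 2 the biggest, 1000258. All 8 microglial markers passed the filter, and their summed level was 6109 to 12629 CPM. Of 12 neutrophil markers, neutrophils being rich in NOX2, 2 passed the filter: Csf3r, which microglia also express, with 419 to 660 reads per group, and Cxcr2 with 25 to 56. S100a9 and Camp had 0 reads in all libraries, and S100a8 and Ly6g 1 read each. The list summed to 244 to 393 CPM, and to 1.74 to 84.4 CPM without Csf3r. Their part in the levels of the oxidase genes was not tested. Counts were tested with edgeR's quasi-likelihood F-test, with Benjamini-Hochberg adjustment over all 6521 genes and a threshold of 0.05.

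None of the 5 oxidase genes passed the threshold in any of 5 contrasts by edgeR, and none did by DESeq2. Among all genes tested, 0.199% passed with microbeads in wild type, 0% with microbeads in Apoe-/-, 0% for the difference between those responses, 0.0153% for genotype in sham retinas and 0.046% for genotype in microbead retinas. At an unadjusted p under 0.05, 1 of the 5 was higher with microbeads in wild type (Cybb), against 7.87% of all genes. The number was 0 in Apoe-/- (6.95% of all genes), 0 for the difference between responses (3.39%) and 0 for genotype in sham retinas (8.68%). For genotype in microbead retinas 1 of the 5 (Cybb) was lower in Apoe-/-, against 7.19%. The median log2 fold change of the 5 with microbeads was 0.20 in wild type and 0.32 in Apoe-/-, beside -0.01 and 0.01 over all genes tested. In bulk samples fewer cells of a type and less RNA per cell cannot be told apart.

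**Figure D1:**
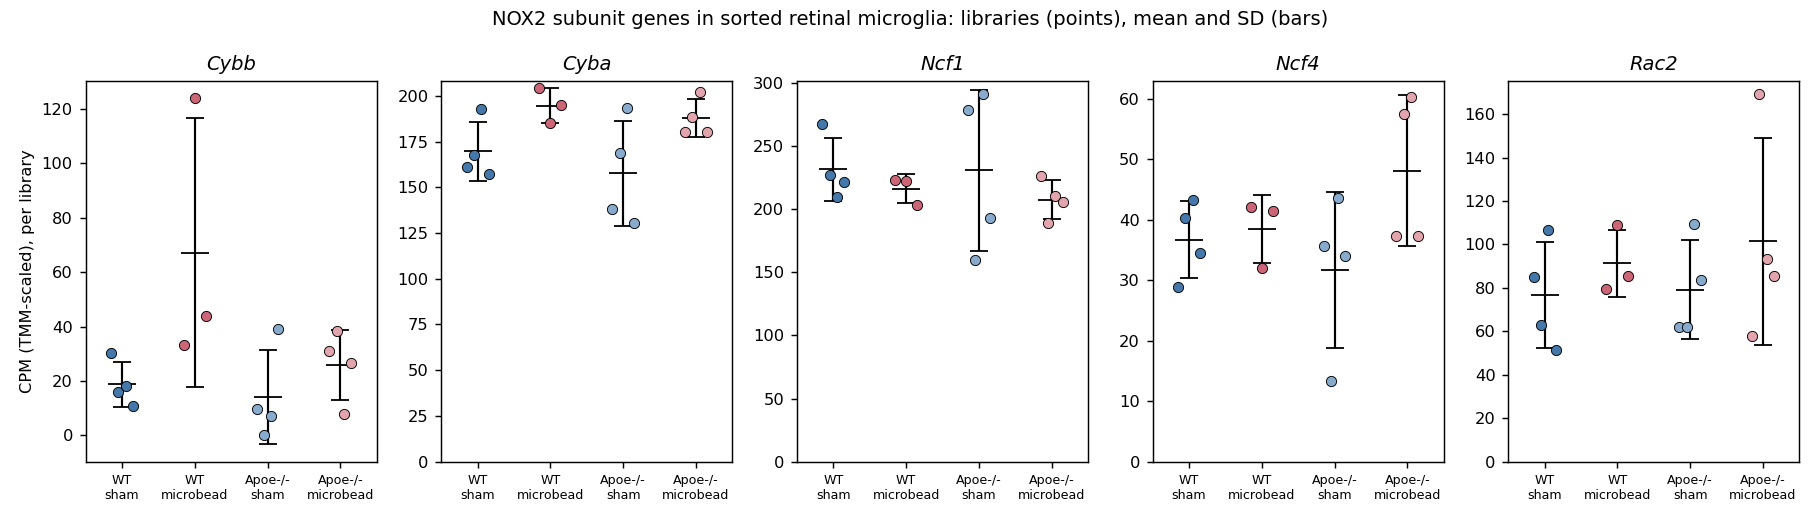
Level of each oxidase gene in every library, in CPM with TMM scaling, by group; points are libraries, the horizontal mark is the group mean and the bar its SD. Cybb is the gene whose wild-type microbead libraries (33.3 to 124 CPM) lie above all wild-type sham libraries (10.8 to 30.4 CPM), while the groups of the other 4 genes overlap.

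Cybb, the catalytic subunit, had the fewest reads of the 5 genes and the widest spread between libraries. The gene (ENSMUSG00000015340) is protein coding and lies on the X chromosome, chrX:9435252-9487771, minus strand (GRCm38). Its RefSeq promoter window, 250 bases before to 50 after the start, is printed with that of Cyba because these 2 genes make the membrane pair yet had the widest and the narrowest spread between libraries. The Cybb window ends after the start of the full-length transcript; the annotated gene span reaches further upstream through the short model Cybb-205. Capitals mark matches on either strand to the PU.1 core GAGGAA, the interferon-response core (GAAA, any 2 bases, GAAA) and the AP-1 pattern TGANTCA. These motifs are known from promoters of myeloid genes. The N in TGANTCA stands for any base, so this pattern is looser than a fixed site.

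Cybb, chrX:9469275-9469574, minus strand, GRCm38.p6: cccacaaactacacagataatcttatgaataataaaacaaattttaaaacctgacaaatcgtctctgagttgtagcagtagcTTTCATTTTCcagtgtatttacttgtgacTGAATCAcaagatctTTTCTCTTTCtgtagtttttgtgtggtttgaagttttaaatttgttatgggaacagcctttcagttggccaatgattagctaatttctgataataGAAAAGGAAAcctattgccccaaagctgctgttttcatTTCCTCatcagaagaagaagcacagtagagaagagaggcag
Cyba, chr8:122432891-122433190, minus strand, GRCm38.p6: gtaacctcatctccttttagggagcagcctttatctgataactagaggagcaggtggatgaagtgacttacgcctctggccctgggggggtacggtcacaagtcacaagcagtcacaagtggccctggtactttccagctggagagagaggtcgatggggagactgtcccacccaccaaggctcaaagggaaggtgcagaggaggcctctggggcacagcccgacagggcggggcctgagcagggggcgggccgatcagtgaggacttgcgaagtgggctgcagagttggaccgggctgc

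In the Cybb window the interferon-response core matched at 3 places, 168, 124 and 29 bases before the start. The AP-1 pattern was matched by TGAATCA, 139 bases before the start. The PU.1 core, on the opposite strand, lay 9 bases after the start. The Cyba window held none of these letters. The window of Ncf1 (chr5:134229576-134229875, minus strand) held 1 interferon-response core, GAAAGTGAAA, 82 bases before the start. Over 32851 promoter windows of that length, 28.3% held the PU.1 core, 3.44% the interferon-response core and 7.81% the AP-1 pattern. All of them were held by 0.0913%, Cybb included, with any middle base allowed in the AP-1 pattern. No window of Ncf4, Rac2 or Rac1 was matched. A match is a description of the sequence only.

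Wild-type sham libraries 1 to 4 held 20, 9, 15 and 5 Cybb reads, and wild-type microbead libraries 1 to 3 held 23, 124 and 33. In Apoe-/- the counts were 4, 0, 4 and 15 with sham and 15, 14, 4 and 17 with microbeads. Most reads of the wild-type microbead group thus came from library 2, with 124 of 180, and 1 Apoe-/- sham library had none. A count of 0 in that library, the smallest on the TMM scale, allows a level of up to 13.3 CPM, taking 3 reads as the limit and counting error only.

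Scaled to CPM, Cybb stood at 30.4, 15.7, 18.0 and 10.8 in wild-type sham and at 33.3, 124 and 44.0 in wild-type microbead libraries. The 2 groups did not overlap, with a narrow gap between sham library 1 and microbead library 1. Among all genes tested, 10.5% had wild-type groups that did not overlap. Group means of Cybb were 18.7 ± 8.34 (SD, n = 4) and 67.1 ± 49.5 CPM (SD, n = 3). The log2 fold change was 1.82 (SE 0.57, 95% interval 0.62 to 3.02). The unadjusted edgeR p was 0.00484 and the adjusted p 0.368, so the difference was not called. Without wild-type microbead library 2 the log2 fold change was 1.01 (adjusted p = 1), and with no filter on low counts it was 1.88 and passed (adjusted p = 0.0024). Over all alternatives the adjusted p for Cybb ran from 0.0024 to 1.

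In Apoe-/- retinas, Cybb stood at 9.52, 0, 6.96 and 39.1 CPM with sham and at 31.1, 38.2, 7.78 and 26.4 CPM with microbeads. These groups overlapped throughout, since sham library 4 was the highest of all 8. The means were 13.9 ± 17.3 CPM (SD, n = 4) and 25.9 ± 13 CPM (SD, n = 4), with a log2 fold change of 0.81 (SE 0.67, 95% interval -0.59 to 2.20, edgeR adjusted p = 0.789). Groups that did not overlap were seen in 2.5% of all genes in this contrast and in none of the 5 oxidase genes. The Apoe-/- response minus the wild-type response of Cybb was -1.02 on the log2 scale (SE 0.90, 95% interval -2.90 to 0.86, edgeR adjusted p = 1). Without Apoe-/- sham library 4 that difference was 0.13, and without wild-type microbead library 2 it was -0.20, so its size and sign rested on single libraries.

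Between genotypes, Cybb was 1.41 lower on the log2 scale in Apoe-/- than in wild-type microbead libraries (log2 fold change -1.41, SE 0.57, 95% interval -2.61 to -0.21, edgeR adjusted p = 0.626). The highest Apoe-/- library (38.2 CPM) lay above the lowest wild-type library (33.3 CPM). Without wild-type microbead library 2 the value was -0.61. In sham retinas the log2 fold change of Cybb was -0.39 (SE 0.67, 95% interval -1.79 to 1.01, edgeR adjusted p = 0.914), and -1.55 without Apoe-/- sham library 4. None of the 5 oxidase genes had genotype groups that did not overlap, beside 3.59% of all genes in sham and 6.84% in microbead retinas.

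The Cybb reads nearly all belonged to the full-length model. The transcript Cybb-201, protein coding and 4752 bases long, held 91.9% of them. Its TPM, the abundance per transcript length as deposited, was 1.80, 1.08, 1.59 and 0.37 in wild-type sham and 2.88, 16.4 and 4.90 in wild-type microbead libraries. In Apoe-/- it was 0.59, 0, 0.45 and 2.09 with sham and 1.93, 1.54, 0.47 and 2.03 with microbeads. In TPM of this transcript the wild-type microbead libraries were the highest of all 15. In CPM of the gene, microbead library 1 lay below 2 Apoe-/- libraries. These measures differ in scaling as well as in the reads counted. By log2(TPM + 1), genes in general stood higher in wild-type microbead libraries, with a median shift of 0.59 from wild-type sham. For Apoe-/- against wild type in microbead retinas the median shift was -0.73. The TPM order thus cannot show that the transcript separates the groups better than the gene. The deposited gene TPM of Cybb gave another picture of the sham libraries, since a few reads given to short models weigh heavily per length. In wild-type sham library 4 the gene TPM was 4.12, of which 3.75 came from 2 reads on the 390-base model Cybb-205. In wild-type sham library 1 the gene TPM was 7.14, above the 6.13 of microbead library 1, so that on gene TPM the 2 groups overlapped. With reads of the most-read transcript of each gene alone, the wild-type log2 fold change of Cybb in edgeR was 1.95 (SE 0.59, adjusted p = 0.327).

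Marker levels of other cells also differed between libraries. The summed level of 8 monocyte markers was 18.0 to 53.8 CPM in wild-type sham, 39.1 to 95 in wild-type microbead, 33.1 to 133 in Apoe-/- sham and 28.0 to 70.4 in Apoe-/- microbead libraries. The highest sum, 133 CPM, was in Apoe-/- sham library 2, the smallest on the TMM scale, which had 0 Cybb reads. In wild type the highest sums, 95 and 81.4 CPM, were in microbead libraries 2 and 3, where Cybb also stood highest. Among wild-type sham libraries the highest sum, 53.8 CPM, was in library 4, where Cybb was lowest at 10.8 CPM. Of this list only Fn1 passed the filter, with a log2 fold change of 1.73 in wild type (SE 0.51, edgeR adjusted p = 0.327). Ly6c2, the gene of the surface protein gated against, had 3 reads in the wild-type sham and 4 in the wild-type microbead libraries. Of 7 border macrophage markers, with a summed level of 28.0 to 79.0 CPM in wild-type sham and 31.9 to 108 in wild-type microbead libraries, 3 were tested and 2 were positive with microbeads in wild type. Among them Ms4a7 had a log2 fold change of 1.89 (edgeR adjusted p = 0.18) and Mrc1 one of -1.17 (edgeR adjusted p = 0.724), while Cd163 and Pf4, not tested, each had 23 reads in wild-type sham and 2 in wild-type microbead libraries. The 10 dissociation and immediate early genes summed to 227 to 3871 CPM in wild-type sham and 1403 to 8268 in wild-type microbead libraries, with 8268 in library 2. Their highest sum, 8536 CPM, was in Apoe-/- microbead library 4, where Cybb stood at 26.4 CPM. Rod genes summed to 527 to 2381 CPM in wild-type sham and 88 to 585 in wild-type microbead libraries, with overlapping ranges and a lower level in the group where mean Cybb was higher. With the rod level as a covariate the log2 fold change of Cybb was 1.42 (edgeR adjusted p = 0.903). In wild type all 10 rod genes were lower with microbeads (median log2 fold change -1.92). This fit therefore cannot cleanly separate rod level from treatment. The part of these lists in the Cybb values was otherwise not tested.

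Cyba, the small membrane partner that holds gp91phox stable, was the most abundant subunit per length and among the steadiest. The gene (ENSMUSG00000006519) lies at chr8:122424776-122432930 on the minus strand. Its levels were 161, 168, 193 and 157 CPM in wild-type sham and 204, 185 and 195 CPM in wild-type microbead libraries. In Apoe-/- they were 138, 169, 193 and 130 CPM with sham and 180, 188, 202 and 180 CPM with microbeads. Microbead libraries sat in the upper part of the sham range or above it in both genotypes, and the groups overlapped because sham library 3 was high in each. The means were 170 ± 16.2 (SD, n = 4), 195 ± 9.63 (SD, n = 3), 158 ± 28.9 (SD, n = 4) and 188 ± 10.3 CPM (SD, n = 4) in the same order of groups.

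With microbeads, the log2 fold change of Cyba was 0.20 in wild type (SE 0.23, 95% interval -0.28 to 0.67, edgeR adjusted p = 0.88). It was 0.25 in Apoe-/- (SE 0.22, 95% interval -0.20 to 0.70, edgeR adjusted p = 0.802). The difference between the responses was 0.06 (95% interval -0.60 to 0.71). Between genotypes it was -0.11 in sham (95% interval -0.56 to 0.34) and -0.05 in microbead retinas (95% interval -0.53 to 0.43). Changes of Cyba of 2-fold or more, a log2 value of 1, lie outside each of these intervals, which are unadjusted and rest on 1 scaling. Over the alternatives that left out no single library, Cyba ran from 0.16 to 0.99 with microbeads in wild type. For genotype in microbead retinas it ran from -1.01 to -0.01. On deposited TPM, where the satellite reads enter the scale, Cyba passed the limma threshold on log2(TPM + 5) in wild type (0.95, adjusted p = 0.0454). The median of all genes moved by 0.33 on the same scale and by 0.59 on log2(TPM + 1). The added 5 shrinks shifts of low genes most, so 0.33 is no measure of the shift at the level of Cyba. Ncf1, at -0.10 in counts, stood at 0.70 on log2(TPM + 1).

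The balance within the membrane pair differed widely between libraries. Cybb reads per 100 Cyba reads were 18.9, 9.38, 9.32 and 6.85 in wild-type sham and 16.3, 67.0 and 22.6 in wild-type microbead libraries. In Apoe-/- they were 6.90, 0, 3.60 and 30.0 with sham and 17.2, 20.3, 3.85 and 14.7 with microbeads. This ratio needs no scaling of libraries, and on it the wild-type groups overlapped, since sham library 1 exceeded microbead library 1. In wild type, Cybb made up 3.44% ± 1.3 (SD, n = 4) of the reads of the 5 genes with sham and 10.6% ± 6.84 (SD, n = 3) with microbeads. In Apoe-/- its shares were 2.76% ± 3.67 (SD, n = 4) and 4.52% ± 2.16 (SD, n = 4).

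**Figure D2:**
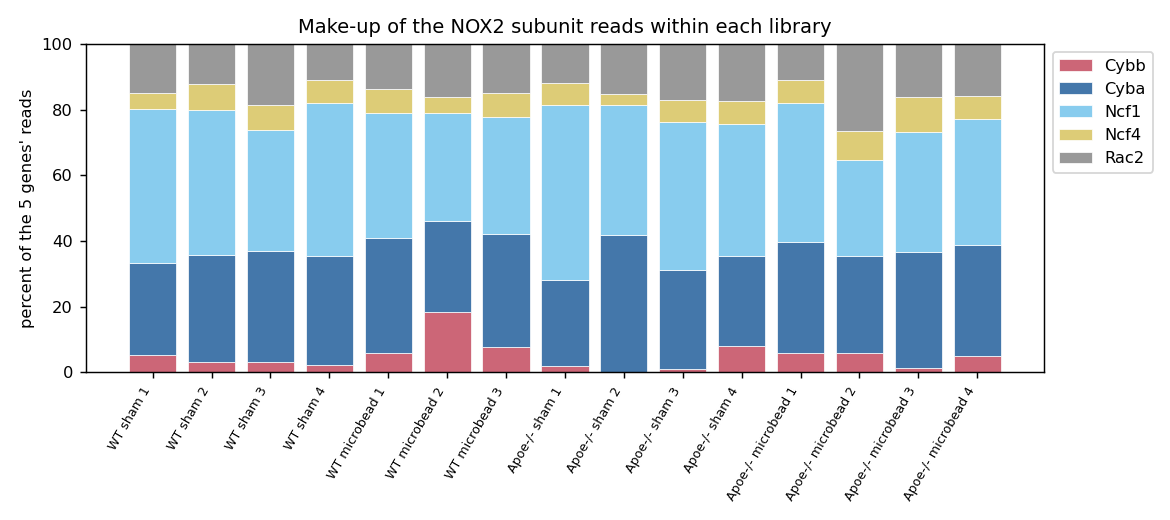
Share of each of the 5 oxidase genes in their summed reads, in percent, 1 bar per library. Ncf1 and Cyba make up most of every bar, and Cybb takes between 0% in Apoe-/- sham library 2 and 18.5% in wild-type microbead library 2.

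Ncf1, the organizer p47phox whose phosphorylation starts assembly, had the most reads of the 5 genes. The gene (ENSMUSG00000015950) lies at chr5:134220053-134229625 on the minus strand, and 408 of its 3663 exon bases are shared with Gtf2ird2 on the other strand. Without strand, reads from the shared bases cannot be told apart, and Gtf2ird2 as a whole had 296 reads beside 1924 of Ncf1. Its levels were 267, 227, 210 and 222 CPM in wild-type sham and 223, 222 and 203 CPM in wild-type microbead libraries. In Apoe-/- they were 278, 160, 291 and 193 CPM with sham and 226, 188, 210 and 205 CPM with microbeads. All groups overlapped, and the Apoe-/- sham libraries were the most scattered.

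Group means of Ncf1 were 231 ± 25.0 (SD, n = 4), 216 ± 11.4 (SD, n = 3), 230 ± 64.0 (SD, n = 4) and 207 ± 15.4 CPM (SD, n = 4) in the order of groups used for Cyba. The log2 fold change with microbeads was -0.10 in wild type (95% interval -0.62 to 0.42, edgeR adjusted p = 0.956). It was -0.16 in Apoe-/- (95% interval -0.65 to 0.33, edgeR adjusted p = 0.899). Both intervals included 0, and on the log2(TPM + 1) scale both values of Ncf1 were above 0. The difference between responses was -0.06 (95% interval -0.78 to 0.66), and the genotype values were 0.00 in sham (95% interval -0.48 to 0.49) and -0.06 in microbead retinas (95% interval -0.58 to 0.47). Against Cyba, Ncf1 reads numbered 138 ± 23.5 per 100 (SD, n = 4) in wild-type sham and 111 ± 8.11 (SD, n = 3) in wild-type microbead libraries. The same ratio was 149 ± 43.7 (SD, n = 4) and 111 ± 11.3 (SD, n = 4) in Apoe-/-, and the groups overlapped in both genotypes.

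Ncf4, p40phox, which binds the lipid PI3P on phagosomes and steadies the cytosolic complex, was sparse. The gene (ENSMUSG00000071715) lies at chr15:78244801-78262580 on the plus strand. Its reads numbered 19, 23, 36 and 16 in wild-type sham, 29, 32 and 31 in wild-type microbead, 15, 3, 25 and 13 in Apoe-/- sham and 18, 21, 31 and 24 in Apoe-/- microbead libraries. The lowest count belonged to the library with the smallest scaled size, and no group stood apart from another. Mean levels were 36.7 ± 6.34 (SD, n = 4), 38.4 ± 5.60 (SD, n = 3), 31.6 ± 12.9 (SD, n = 4) and 48.1 ± 12.5 CPM (SD, n = 4). In the last group 2 libraries stood at 37.3 CPM and the other two at 57.4 and 60.3 CPM.

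With microbeads, the log2 fold change of Ncf4 was 0.06 in wild type (SE 0.32, 95% interval -0.60 to 0.72, edgeR adjusted p = 0.988) and 0.52 in Apoe-/- (SE 0.31, 95% interval -0.14 to 1.18, edgeR adjusted p = 0.745). The difference of 0.46 between these responses had an interval of -0.47 to 1.4. For genotype the values of Ncf4 were -0.15 in sham (95% interval -0.80 to 0.51) and 0.32 in microbead retinas (95% interval -0.35 to 0.98).

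Rac2, the GTPase that completes the active enzyme, varied between libraries more than the groups differed. The gene (ENSMUSG00000033220) lies at chr15:78559167-78572783 on the minus strand. Its levels were 85.1, 62.9, 107 and 51.6 CPM in wild-type sham and 79.7, 109 and 85.4 CPM in wild-type microbead libraries. In Apoe-/- they were 61.9, 62.2, 110 and 83.5 CPM with sham and 58.0, 169, 93.3 and 85.6 CPM with microbeads. The highest level, in Apoe-/- microbead library 2, stood well above the other 3 of its group, and all groups overlapped.

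Means of Rac2 were 76.6 ± 24.4 (SD, n = 4), 91.3 ± 15.5 (SD, n = 3), 79.3 ± 22.6 (SD, n = 4) and 102 ± 47.7 CPM (SD, n = 4). The log2 fold change with microbeads was 0.24 in wild type (SE 0.33, 95% interval -0.46 to 0.94, edgeR adjusted p = 0.901) and 0.32 in Apoe-/- (SE 0.32, 95% interval -0.36 to 1.00, edgeR adjusted p = 0.841). The difference between responses was 0.08 (95% interval -0.90 to 1.05). For genotype the values of Rac2 were 0.06 in sham (95% interval -0.62 to 0.73) and 0.13 in microbead retinas (95% interval -0.57 to 0.84). Without Apoe-/- microbead library 2 some of these signs turned, and with offsets for transcript length all of them did.

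Rac1, the widespread GTPase, had fewer reads than Rac2 in most libraries, at 51.3 ± 11.5 (SD, n = 4), 61.4 ± 9.99 (SD, n = 3), 60.5 ± 26.6 (SD, n = 4) and 42.8 ± 12.0 CPM (SD, n = 4). Its log2 fold change with microbeads was 0.24 in wild type (95% interval -0.42 to 0.90, edgeR adjusted p = 0.894) and -0.48 in Apoe-/- (95% interval -1.15 to 0.19, edgeR adjusted p = 0.754). The difference between these, -0.72, had an interval of -1.66 to 0.22 (edgeR adjusted p = 1). Rac1 shares 2309 of its 4496 exon bases with Daglb on the other strand, so its counts are uncertain without strand. Per 100 Rac1 reads, the wild-type groups had 147 ± 16.6 (SD, n = 4) and 154 ± 48.4 (SD, n = 3) Rac2 reads, sham first. The Apoe-/- groups had 163 ± 102 (SD, n = 4) and 233 ± 59.4 (SD, n = 4).

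**Figure D3:**
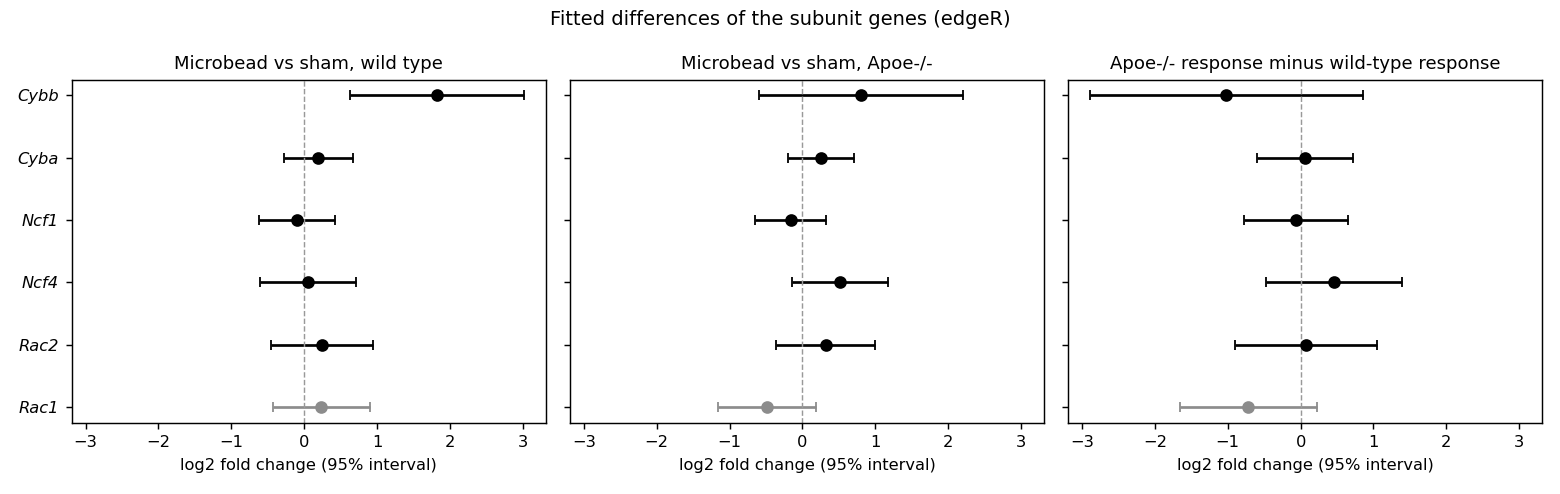
Fitted log2 fold changes (points) with 95% intervals (lines) from edgeR, for the 5 oxidase genes in black and Rac1 in grey; the panels show microbead against sham in wild type, the same in Apoe-/-, and the Apoe-/- response minus the wild-type response. The interval of Cybb in wild type (0.62 to 3.02) lies above 0, its adjusted p was 0.368, and every other interval drawn includes 0.

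Spread between libraries, as edgeR's biological coefficient of variation for each gene, set Cybb apart from the other subunits. It was 51.1% for Cybb, 21% for Cyba, 23.5% for Ncf1, 21.3% for Ncf4 and 30.0% for Rac2, beside a median of 30.3% over all genes tested. By mean CPM, Cybb lay above 56.5% of tested genes, Ncf4 above 69.1%, Rac2 above 88.7%, Cyba above 95.3% and Ncf1 above 96.6%. Cybb also had the highest SE of the 5 oxidase genes in each of the 5 contrasts, while the SE of Ncf4, with few reads too, was below that of Rac2 in each.

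Levels of different genes can be compared only per length. On the most-read transcript of each gene, median TPM over the 15 libraries was 68.0 for Cyba, 20.6 for Ncf1, 6.92 for Rac2, 6.01 for Ncf4, 5.80 for Rac1 and 1.59 for Cybb. Cyba was above Ncf1 in 15 of 15 libraries, and Ncf1 above Rac2, Ncf4, Rac1 and Cybb in 15 of 15. Rac2, Ncf4 and Rac1 were not separated beyond their spread: Rac2 was above Ncf4 in 10 of 15 libraries and above Rac1 in 8 of 15. Cybb was below Ncf4 in 12 of 15 libraries and below Rac2 in 14 of 15, and by median the catalytic subunit had the lowest level per length of the genes compared. The exception against Rac2 was wild-type microbead library 2, with 16.4 TPM of Cybb-201 and 16.3 of Rac2-201.

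**Figure D4:**
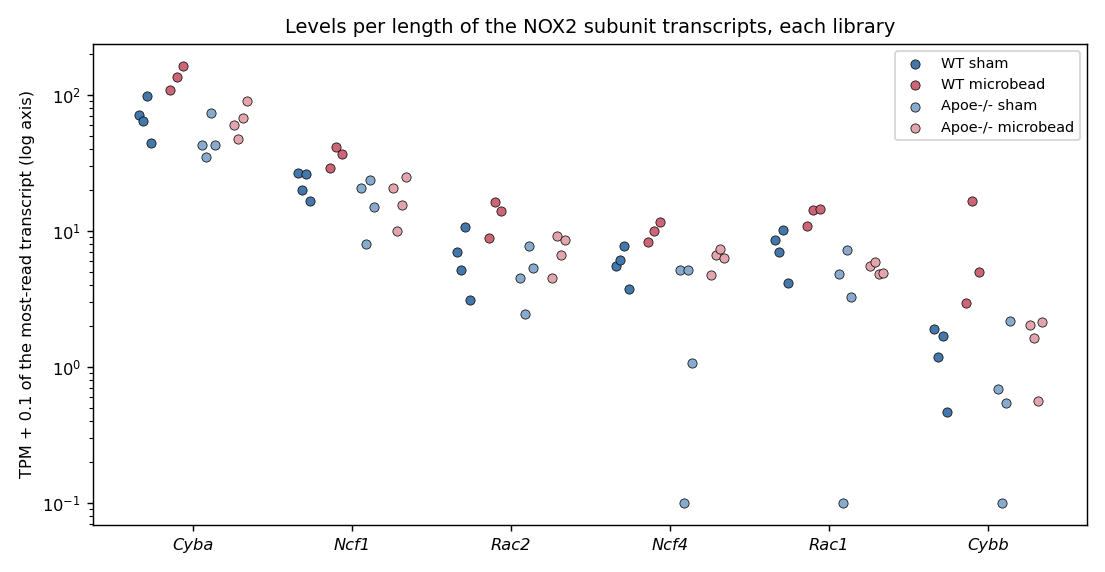
TPM of the most-read transcript of the 5 oxidase genes and Rac1 (with 0.1 added, log axis), 1 point per library and colours for the 4 groups; genes are ordered by their median. Cyba leads in every library and Cybb is last by median, with its 3 wild-type microbead libraries at 2.88 to 16.4 TPM above the remaining 12; on this scale the median of all genes is also higher in wild-type microbead than in wild-type sham libraries.

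Gene TPM of Rac2, like that of Cybb, rested in some libraries on a few reads given to a short model. The 254-base model Rac2-203 held 2.81% of Rac2 reads and was given reads in 5 libraries. In wild-type microbead library 2, 6.06 reads on it made 22.6 of the 38.9 TPM of Rac2. In wild-type sham library 3, 6.10 reads made 17.3 of 27.9 TPM. On Rac2-201 alone these libraries stood at 16.3 and 10.6 TPM.

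Levels of the oxidase genes followed each other only loosely, though the few reads of Cybb and Ncf4 limit how high such correlations can be. Over 15 libraries, Pearson correlations of log2 CPM between pairs of the 5 ranged from -0.09 (Cyba and Ncf1) to 0.49 (Ncf4 and Rac2). With all genes of at least 50 CPM, the median r of each of the 5 lay between 0.05 (Ncf1) and 0.16 (Cybb). The 95th percentile lay between 0.56 (Cyba) and 0.69 (Ncf4). Within groups the 10 pairs ranged from -0.57 (Cybb and Cyba, 0.11 over all libraries) to 0.48 (Ncf1 and Ncf4). The points are libraries that differ in depth and satellite share, and the values are descriptions. The genes most like Cybb, among those with a mean of at least 50 CPM, were the MHC class II genes H2-Ab1 (r = 0.91) and H2-Aa (r = 0.89) and the lysosomal enzyme gene Gaa (r = 0.86). They are the top 3 of 1478 genes ranked on these same libraries. Over the 1478 the median r was 0.16 and the 95th percentile 0.69. Within groups the correlation of Cybb with H2-Ab1 was 0.88. Without the 2 libraries farthest from the Cybb median, wild-type microbead library 2 and Apoe-/- sham library 2, it was 0.74 over 13 libraries.

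H2-Ab1 itself stood at 116 ± 23.3 with sham (SD, n = 4) and 482 ± 296 CPM with microbeads (SD, n = 3) in wild type. Its Apoe-/- means were 42.9 ± 36.3 (SD, n = 4) and 113 ± 43.9 CPM (SD, n = 4). Its log2 fold change with microbeads was 2.05 in wild type (SE 0.48, edgeR adjusted p = 0.0885) and 1.36 in Apoe-/- (SE 0.49, edgeR adjusted p = 0.7), so it was not called either. In wild-type microbead library 2 both Cybb and H2-Ab1 were at their highest, and in Apoe-/- sham library 2 both were at their lowest.

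**Figure D5:**
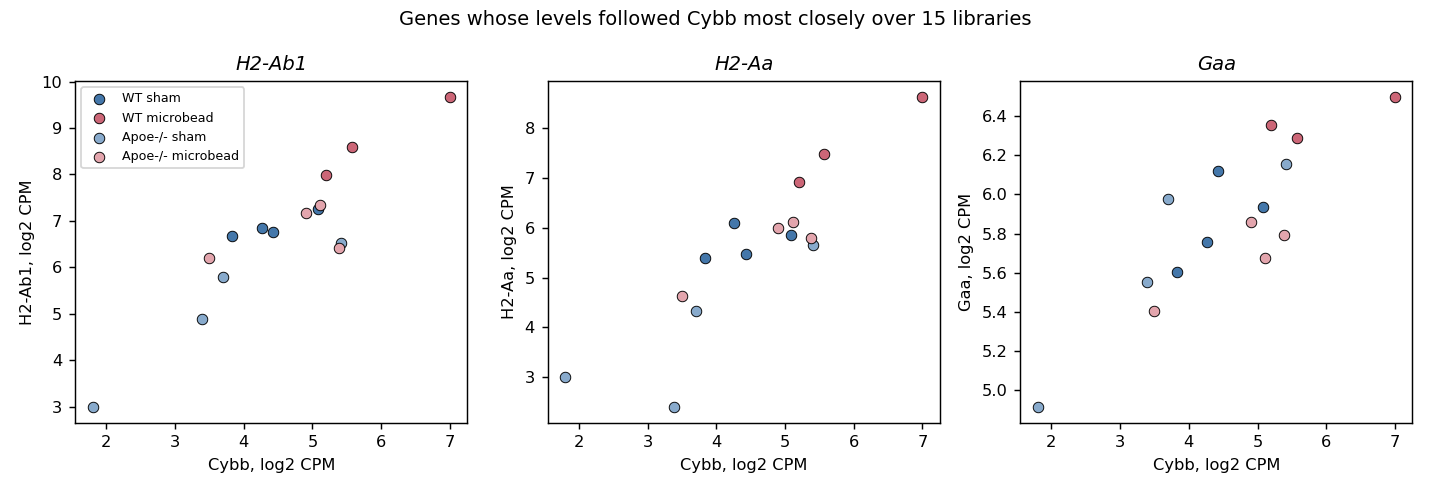
Log2 CPM of Cybb (x axis) against that of H2-Ab1, H2-Aa and Gaa (y axes), 1 point per library in the colour of its group, 15 libraries. The points run from Apoe-/- sham library 2 at the lower left to wild-type microbead library 2 at the upper right. The r values are 0.91, 0.89 and 0.86, the top 3 of 1478 genes compared (95th percentile 0.69).

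The genes most like the other subunits were different ones, again the top 3 of each ranking. The 95th percentile of r over the genes ranked was 0.56 for Cyba, 0.59 for Ncf1, 0.69 for Ncf4 and 0.62 for Rac2. For Cyba they were Npc1 (r = 0.80), a cholesterol transporter, Epb41l2 (0.79) and Eef1b2 (0.78). For Ncf1 they were Inpp5d (0.83), the lipid phosphatase SHIP1, Lair1 (0.82), an inhibitory receptor, and Dbnl (0.79). For Ncf4 they were Rbck1 (0.93), Rpl29 (0.87) and Atp8a1 (0.86), and for Rac2 Rpl39 (0.82), Lrpap1 (0.82) and Rpl19 (0.81). Without the 2 libraries farthest from the median of each subunit, these values ranged from 0.34 (Ncf4 with Atp8a1) to 0.83 (Rac2 with Lrpap1, and Ncf4 with Rbck1).

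Genes that mature, assemble or regulate the oxidase showed no called change. Of 19 listed, 16 were tested, and 0 passed the edgeR threshold in any of the 5 contrasts. At an unadjusted p under 0.05 the count was 1 of 16 with microbeads in wild type (7.87% of all genes) and 0 in Apoe-/- (6.95%). The 1 gene was Prdx6, a peroxiredoxin that also aids NOX2 activity (log2 fold change 1.31, SE 0.51). Prkcd, a kinase that phosphorylates p47phox, was the 1 such gene in each genotype contrast (8.68% of all genes in sham and 7.19% in microbead retinas). Its log2 fold change was -0.68 in sham (SE 0.31, edgeR adjusted p = 0.57) and -0.75 in microbead retinas (SE 0.33, edgeR adjusted p = 0.627). Its means were 217 ± 58.0 (SD, n = 4) and 261 ± 41.6 CPM (SD, n = 3) in wild type and 133 ± 64.8 (SD, n = 4) and 155 ± 12.9 CPM (SD, n = 4) in Apoe-/-, sham first. The list's median log2 fold change was 0.01 with microbeads in both genotypes, beside -0.01 in wild type and 0.01 in Apoe-/- over all genes.

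The chaperone of the membrane pair, Cybc1 (EROS), had log2 fold changes with microbeads of -0.12 in wild type (95% interval -0.77 to 0.53) and -0.04 in Apoe-/- (95% interval -0.68 to 0.59). For Nrros, which promotes the breakdown of gp91phox, the values were -0.21 (95% interval -0.94 to 0.52) and 0.56 (95% interval -0.15 to 1.28). Hvcn1, the proton channel that balances the charge moved by the oxidase, had 0.42 (95% interval -0.20 to 1.05) and 0.02 (95% interval -0.58 to 0.62). Spi1, the gene of PU.1, which drives several NOX2 genes in myeloid cells, had 0.24 (95% interval -0.42 to 0.91) and 0.09 (95% interval -0.59 to 0.76). None of these passed the edgeR threshold, and no value of theirs matched the size of the Cybb value in wild type.

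Receptors and adaptors that trigger the burst were mostly on the positive side with microbeads. Of 14 listed, 12 were tested, and 11 of 12 had a positive log2 fold change in each genotype, with medians of 0.45 in wild type and 0.43 in Apoe-/-. Over all genes 49.1% and 50.8% were positive, with medians of -0.01 and 0.01. These 2 contrasts come from different libraries, and 0 of the 12 passed the edgeR threshold in either. In wild type 3 had an unadjusted p under 0.05 (7.87% of all genes), the Fc receptor genes Fcgr2b (0.88, SE 0.30) and Fcgr4 (0.99, SE 0.42) and the phospholipase gene Plcg2 (0.71, SE 0.34). In Apoe-/- there were 2 (6.95% of all genes), Fcgr1 (0.77, SE 0.25) and Fcgr4 (1.02, SE 0.46). For the difference between responses (3.39% of all genes) it was Syk (-0.95, SE 0.40), the kinase under these receptors. For genotype (8.68% of all genes in sham and 7.19% in microbead retinas) they were Fcgr1 (-0.57) and C5ar1 (-1.30), the complement C5a receptor gene, in sham and Plcg2 (-0.80) in microbead retinas.

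Enzymes that remove superoxide and peroxide gave 8 tested genes of 10, and again 0 passed the edgeR threshold. In wild type 7 of 8 were positive with microbeads (median 0.61), beside 49.1% of all genes (median -0.01). There 2 had an unadjusted p under 0.05 (7.87% of all genes), Prdx1 (0.87, SE 0.28) and the thioredoxin gene Txn1 (1.98, SE 0.62). In Apoe-/- 5 of 8 were positive (median 0.10), beside 50.8% of all genes (median 0.01), with none at that level (6.95% of all genes). The difference between responses had an unadjusted p under 0.05 for Prdx1 (-0.88, SE 0.41), beside 3.39% of all genes. In microbead retinas all 8 were lower in Apoe-/- than in wild type (median -0.54), where 51% of all genes were higher (median 0.01). Of these 8, 3 had an unadjusted p under 0.05, beside 7.19% of all genes: Prdx1 (-1.05, SE 0.29, edgeR adjusted p = 0.374), Prdx5 (-0.72) and Txn1 (-1.45).

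Of 7 myeloid transcription factors, 6 were tested and 0 passed. Irf1, an interferon-induced factor, was the 1 gene with an unadjusted p under 0.05, with microbeads in Apoe-/- (6.95% of all genes). Its log2 fold change there was 1.43 (SE 0.45, edgeR adjusted p = 0.7). Its mean went from 17.6 ± 5.98 (SD, n = 4) to 49.4 ± 22.6 CPM (SD, n = 4). The other NADPH oxidases and their partners had few reads. None of 9 passed the filter on low counts, and over all 15 libraries they had between 2 reads (Duoxa2) and 61 reads (Nox4). Cybb, with the fewest reads of the 5 oxidase genes, had 302. Reads do not compare genes of unlike length. In gene TPM, Nox4 averaged 1.42 in wild-type sham and 2.43 in wild-type microbead libraries, beside 3.73 and 12.8 for Cybb. In Apoe-/- it averaged 2.55 with sham and 2.96 with microbeads, beside 1.24 and 2.95 for Cybb. Per length, Nox4 was thus not below Cybb in the Apoe-/- groups, though its values rest on few reads.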

How the data were processed

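Estimated counts of reads per transcript, TPM and effective lengths were deposited by the authors, 1 Salmon table per library per the file headers, with gene TPM (SMART-Seq2) in 1 series table. Per the submitters' processing notes, Salmon 1.4.0, R 4.0.3, DESeq2 1.30.1 and build mm10 were used. For the annotation release and the library type, the sources used here give nothing.

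Transcripts were assigned to genes with GENCODE M21 (116023 of 116945; unassigned ones held 0.217 to 0.354% of reads and were left out), and the estimated counts of each gene's transcripts were added up and rounded. TPM summed in this way matched the deposited gene TPM of the 5 genes and Rac1 in 15 of 15 libraries (relative tolerance 0.001). 1 edgeR 4.0.16 quasi-likelihood model of 4 groups (R 4.3.3, TMM, filterByExpr) gave 5 contrasts, with two-sided p-values adjusted by Benjamini-Hochberg over 6521 genes, and was tested on simulated data. limma 3.58.1 (log2 of TPM plus 1 or 5) and DESeq2 1.42.0 were alternatives, as were changes of normalization, filter, length offsets, satellite models, covariates and the libraries in the fit; the reads of the most-read transcript were an alternative chosen after seeing the data. Promoters are from RefSeq (3 of 5 genes matched).

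The members and gene lists were chosen with earlier results of these data known. Named were the 5 genes, Rac1, Nrros, Hvcn1, Cybc1, Prkcd and Spi1 whatever their values, up to 4 genes per list with an unadjusted p under 0.05, and the 3 genes most correlated with each member; 1 further gene of the rule is not reported here. No libraries agreed within sampling noise.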

Additional observations from a re-analysis of the deposited data

How the results depend on the processing

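Over 27 alternatives, of which 26 were planned, 131 of 134 counts of called oxidase genes were 0, as in the main analysis. The count for microbead against sham in wild type was 1 with no filter on low counts (Cybb) and 1 with limma on log2(TPM + 5) (Cyba). With limma on log2(TPM + 5) it was 2 for genotype in microbead retinas, Cybb -1.12 (adjusted p = 0.0299) and Cyba -0.97 (adjusted p = 0.0303). In that contrast the median of all genes was -0.40, and -0.73 on log2(TPM + 1). For microbead against sham in wild type, all genes had a median of 0.59 on log2(TPM + 1), so values on TPM carry that shift. The causes were not tested. Over all genes, 13 were called for microbead against sham in wild type, all higher. There were 33 higher and 3 lower with DESeq2, 87 and 37 with no filter, 50 and 0 on log2(TPM + 1), 449 and 2 on log2(TPM + 5), 5 and 0 with at least 10 reads in 7 libraries, and 7 and 0 with the replicate block. For genotype in microbead retinas 3 were lower, against 18 higher and 8 lower with DESeq2, 33 and 40 with no filter, and 2 and 998 on log2(TPM + 5). With any 1 library left out, 0 oxidase genes were called in each contrast. Retina numbers did not pair the libraries: correlations of deviations between same-numbered libraries ran from -0.17 to 0.22, 3 of 21 over 0.1, and 2 of 15 libraries were closest to their own number. With the replicate block the wild-type Cybb value was 1.77 (adjusted p = 0.538) and all 5 counts were 0. Of 669 recomputed log2 fold changes, 593 kept their direction and their side of the threshold, 4 were newly called and 72 changed sign, the smallest adjusted p among the last being 0.151.

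These values had the opposite sign of the main ones. Limma on log2(TPM + 1) gave Ncf1 0.70 for microbead against sham in wild type, Ncf1 0.14, Rac2 -0.091 for microbead against sham in Apoe-/-, Cyba -0.46, Ncf4 -0.50, Rac2 -0.68 for the difference between responses, Ncf1 -0.42, Rac2 -0.50 for genotype in sham, Ncf4 -0.61, Rac2 -1.19 for genotype in microbead retinas. Limma on log2(TPM + 5) gave Ncf1 0.62 for microbead against sham in wild type, Ncf1 0.093, Rac2 -0.087 for microbead against sham in Apoe-/-, Cyba -0.46, Ncf4 -0.40, Rac2 -0.54 for the difference between responses, Ncf1 -0.33, Rac2 -0.38 for genotype in sham, Ncf4 -0.47, Rac2 -0.92 for genotype in microbead retinas. Transcript length offsets gave Rac2 -0.16 for microbead against sham in wild type, Rac2 -0.39 for microbead against sham in Apoe-/-, Rac2 -0.23 for the difference between responses, Ncf4 0.26, Rac2 -0.19 for genotype in sham, Rac2 -0.42 for genotype in microbead retinas. Adding rod marker level as covariate gave Ncf4 -0.15, Rac2 -0.084 for microbead against sham in wild type, Ncf1 0.14 for the difference between responses, Ncf1 -0.090, Rac2 -0.19 for genotype in sham, Ncf1 0.051 for genotype in microbead retinas. Counting the most-read transcript alone, an alternative chosen after seeing the data, gave Cyba -0.013 for the difference between responses, Ncf1 -0.041 for genotype in sham. Upper-quartile normalization gave Ncf1 -0.073, Rac2 -0.021 for genotype in sham. Dropping the satellite models gave Ncf1 -0.020 for genotype in sham. Leaving out the filter on low counts gave Ncf1 -0.13, Rac2 -0.094 for genotype in sham. The replicate block gave Ncf1 -0.016 for genotype in sham. A fit of the compared groups alone gave Ncf1 -0.010 for genotype in sham. With libraries left out in turn, values ranged over both signs in Ncf4 -0.050 to 0.17 for microbead against sham in wild type, Rac2 -0.029 to 0.52 for microbead against sham in Apoe-/-, Cyba -0.024 to 0.18, Rac2 -0.27 to 0.29, Ncf1 -0.20 to 0.073, Cybb -1.34 to 0.13 for the difference between responses, Ncf1 -0.13 to 0.14, Rac2 -0.16 to 0.26, Ncf4 -0.34 to 0.049 for genotype in sham, Rac2 -0.21 to 0.32 for genotype in microbead retinas. Depth was lowest for Cybb and Ncf4, with 302 and 336 reads over 15 libraries.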
